A study of Mus musculus with 13 samples.

Results

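The cytosolic chaperonin CCT, also called TRiC, is a folding machine built from 8 different but related subunits, and the genes of all 8 were followed here in mouse bone marrow after blood loss. The members are Tcp1, Cct2, Cct3, Cct4, Cct5, Cct6a, Cct7 and Cct8, taken as the probe sets that the array annotation gives to one of these genes alone. Each gene had 1 such probe set, so 8 of 19938 measured genes are described. The deposited values come from 13 Affymetrix Mouse Gene 1.0 ST arrays, 1 per sample of femoral marrow from male C57BL/6 mice aged 6 weeks. In phlebotomised mice 500 µL of blood had been drawn by puncture behind the eye. Marrow was taken at 4 h on 1 array, at 9 h on 3 arrays, and at 12, 15 and 48 h on 2 arrays each, against 3 arrays of controls taken at baseline. The labels give no allele, transgene or drug, no sham puncture and no hour of day. Whether each array is a mouse of its own is not stated, and the spread behind every p-value may therefore be technical.

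CCT stacks its subunits into a pair of rings, each with 1 copy of every subunit, and closes over an unfolded protein in a cycle driven by ATP. It folds actin, tubulin and many proteins with WD repeats, and receives a part of them from prefoldin, a smaller chaperone. Marrow holds many dividing blood cell precursors, among them the erythroid cells that replace red cells after bleeding. In yeast the subunits that correspond to Tcp1, Cct4, Cct2 and Cct5 form one side of the ring and bind ATP tightly, and those that correspond to Cct7, Cct8, Cct6a and Cct3 form the other side and bind it weakly.

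The 8 genes lie on 8 different chromosomes, and RefSeq promoter windows (GRCm38.p6, 250 bases before to 50 bases after the annotated start) were matched for 7 of them, all but Cct4. Of the windows below, those of Cct3 and Cct8 are shown because these genes had the largest fitted changes, that of Tcp1 because it held a CCAAT box and an ETS core, and that of Cct6a because it held a CCAAT box and a heat shock dimer. They run 5′ to 3′ on the strand of the gene; capitals mark a CCAAT box (CCAAT or, reversed, ATTGG), an ETS core (CCGGAAG or CTTCCGG) or a heat shock dimer (TTCNNGAA).
Tcp1, chr17:12916079-12916378, plus strand: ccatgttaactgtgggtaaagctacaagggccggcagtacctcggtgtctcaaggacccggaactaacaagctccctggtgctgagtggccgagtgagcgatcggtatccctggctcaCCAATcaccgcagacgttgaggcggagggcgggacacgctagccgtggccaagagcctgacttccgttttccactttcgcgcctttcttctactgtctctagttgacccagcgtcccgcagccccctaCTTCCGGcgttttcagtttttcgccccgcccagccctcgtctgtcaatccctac
Cct3, chr3:88296885-88297184, plus strand: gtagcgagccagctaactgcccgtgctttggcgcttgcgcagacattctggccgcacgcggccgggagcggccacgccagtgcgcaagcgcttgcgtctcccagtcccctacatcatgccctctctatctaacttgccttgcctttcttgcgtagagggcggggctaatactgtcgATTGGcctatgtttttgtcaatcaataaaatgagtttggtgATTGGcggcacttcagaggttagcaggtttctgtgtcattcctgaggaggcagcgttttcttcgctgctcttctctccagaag
Cct8, chr16:87495820-87496119, minus strand: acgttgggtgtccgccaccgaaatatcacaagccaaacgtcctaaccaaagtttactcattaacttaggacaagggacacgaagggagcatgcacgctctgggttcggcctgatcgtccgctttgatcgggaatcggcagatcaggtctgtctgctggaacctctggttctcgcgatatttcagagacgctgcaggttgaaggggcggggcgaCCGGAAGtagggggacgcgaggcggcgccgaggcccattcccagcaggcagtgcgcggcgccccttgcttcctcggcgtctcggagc
Cct6a, chr5:129787106-129787405, plus strand: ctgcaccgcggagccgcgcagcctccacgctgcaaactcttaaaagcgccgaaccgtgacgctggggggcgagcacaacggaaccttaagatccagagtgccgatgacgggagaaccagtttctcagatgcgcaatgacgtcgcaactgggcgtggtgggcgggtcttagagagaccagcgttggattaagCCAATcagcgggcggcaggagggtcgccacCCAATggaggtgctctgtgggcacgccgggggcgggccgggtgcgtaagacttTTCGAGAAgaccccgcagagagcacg

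A CCAAT box was present in 4 of the 7 windows (Tcp1, Cct3, Cct6a and Cct7), against 37.4% of all 32851 windows of that length. The ETS core was found in 3 (Tcp1, Cct2 and Cct8), against 8.86%, and the GC box GGGCGG in all 7, against 35.7%. The heat shock dimer TTCNNGAA was found in 2 (Cct5 and Cct6a), against 8.52%, and its other order GAANNTTC in 0, against 7.86%. The E-box CACGTG, the site of MYC and its relatives, was in 0 of the 7 windows, against 7.15%, and the CRE TGACGTCA in 0, against 1.79%. Both strands were searched and overlapping matches were allowed. These are matches of letters, not sites shown to be bound.

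The arrays fall into 2 runs by the numbers in their titles, a larger run of 10 arrays and a smaller run of 3. The smaller run holds 9 h replicates 1 and 2 with control replicate 3. Median deposited log2 levels were 6.98 to 7.03 in the larger run and at least 7.77 in the smaller, and 62.3% of probe sets repeat a value within the smaller run. None of the 8 subunits does so. Levels are therefore compared only within a run, and every fit carries a term for it. Defining genes of marrow were present: the 10 neutrophil markers averaged at least 12.81 on the log2 scale on each array of the larger run. The 4 h array carried transcripts of small intestine, with Reg3g, a lectin of gut epithelium, at 12.32 against 7.61 and 7.54 in the controls of its run. Skeletal muscle markers were also high there, with a mean of 10.34 on the 4 h array against 8.59 and 8.46 in those controls (8 of 8 above 0, median change 1.66, 0 past the threshold), and they lay at 9.52 and 7.46 on the 48 h arrays. Both 48 h arrays, and less so 9 h replicate 1, carried those of liver: Alb, serum albumin, had log2 levels of 11.69 and 11.44 at 48 h against 6.87 and 7.23 in those controls. Of 7 liver markers 5 had values above 0 at 48 h, Hp and Trf being the exceptions. On 9 h replicate 1 Alb was at 9.68, against 7.74 in the control of its run, but Apoa2 only at 7.52, against 7.49. Controls of both runs in turn lay above the later arrays in Reg3g, which was at 5.17 to 6.11 from 9 to 48 h in the larger run. In the smaller run Reg3g was at 7.71 in the control and at 5.41 and 5.54 at 9 h. Every comparison with control uses these control arrays. In bulk marrow fewer cells of a type and less RNA per cell cannot be told apart. Precision is limited by how few arrays each group has.

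All 8 subunits had fitted changes above 0 from 9 to 15 h after phlebotomy, where 49.1% of all genes were above 0, and 4 of them passed the test. Changes are log2 fold changes ± standard error (SE) from 1 limma fit to all 13 arrays and 19938 genes, with Benjamini-Hochberg adjusted p-values over these genes and a threshold of 0.05. In the mean of 9, 12 and 15 h (7 arrays) against control (3 arrays), 4 of the 8 subunits rose, Cct3, Cct8, Cct5 and Cct7, against 0.652% of all genes called higher. The other 4 did not pass. The median of the 8 was 0.31, with a range of 0.20 to 0.44, while the median of all genes was −0.00. A log2 change of 0.31 is small, about the size of Cct5, which was 1.24-fold higher. Every array of the 3 times lay above every control of its run for 7 of 8 subunits, against 3.32% of all genes, the exception being Cct6a. A gene with equal 9 h and control values in the smaller run cannot meet this rule. Such ties lower the share of all genes and occur in no subunit.

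The count of 4 depended on single arrays. It was 0 without control replicate 2, 12 h replicate 2, 15 h replicate 1 or 15 h replicate 2, 1 without 12 h replicate 1, 2 without 9 h replicate 1 or 9 h replicate 2, and 5 without control replicate 1. In the larger run alone it was 0. The share of all genes called in these fits is not given, so the counts cannot be set against it. The median change ran from 0.26 to 0.33 over the 13 fits that each left out 1 array, and every subunit kept a value above 0 in each of them.

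Cct3, on the side of the ring that binds ATP weakly, had log2 levels of 9.93 at 4 h, 10.14 at 9 h, 10.16 and 10.27 at 12 h, 10.12 and 10.18 at 15 h, and 9.94 and 10.14 at 48 h in the larger run, against 9.69 and 9.62 in its controls. In the smaller run it had 11.11 and 11.15 at 9 h, against 10.91 in the control. All phlebotomised arrays lay above the controls of their run. Cct3 rose by 0.44 ± 0.07 in the mean of 9, 12 and 15 h (1.36-fold, adjusted p = 0.0175), the largest of the 8 fitted changes there. Between the runs the fitted shift of the subunits ran from 0.36 (Cct2) to 1.12 (Cct3) toward the smaller run, where the median of all genes was 0.77 higher.

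Cct8 had log2 levels of 9.86 at 4 h, 10.12 at 9 h, 10.20 and 10.24 at 12 h, 10.10 and 10.18 at 15 h, and 10.07 and 10.27 at 48 h, against 9.69 and 9.62 in the controls of the larger run. In the smaller run its levels were 10.63 and 10.65 at 9 h, against 10.48. No phlebotomised array overlapped the controls of its run. Cct8, which neighbours Cct7 in the ring, rose by 0.42 ± 0.07 (1.34-fold, adjusted p = 0.0236) in the mean of the 3 times. At 48 h it had the highest value of the 8 subunits, 0.47 ± 0.10 (adjusted p = 0.0741), which did not pass.

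Cct7, at one edge of that side of the ring, had log2 levels of 10.53 at 4 h, 10.60 at 9 h, 10.75 and 10.76 at 12 h, 10.74 and 10.71 at 15 h, and 10.66 and 10.71 at 48 h, against 10.41 and 10.31 in the controls of the larger run. Its levels in the smaller run were 11.27 and 11.29 at 9 h, against 11.14. The replicates of a time lay close together, and again none reached the controls. Cct7 rose by 0.31 ± 0.05 (1.24-fold, adjusted p = 0.0240). It followed the others most closely: over the 10 arrays of the larger run its level correlated with the mean of the other 7 at r = 0.98.

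Cct6a completes the weakly binding side. It had 11.28 at 4 h, 11.27 at 9 h, 11.51 and 11.55 at 12 h, 11.59 and 11.49 at 15 h, and 11.32 and 11.39 at 48 h, against 11.28 and 10.94 in the controls of the larger run. The 9 h and 4 h arrays of that run overlapped its controls, which themselves differed by 0.34, the widest gap of any subunit. Its change in the mean of the 3 times was 0.36 ± 0.07 (adjusted p = 0.0606) and did not pass, although it was the third largest of the 8; without control replicate 1 it passed at an adjusted p = 0.0153.

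On the side of the ring that binds ATP tightly, Cct5 alone passed. It had log2 levels of 10.91 at 4 h, 10.88 at 9 h, 11.02 and 11.00 at 12 h, 11.02 and 10.98 at 15 h, and 10.89 and 11.02 at 48 h, against 10.66 and 10.60 in the controls of the larger run. The smaller run gave 11.34 and 11.43 at 9 h, against 11.21. Cct5 rose by 0.31 ± 0.05 (adjusted p = 0.0283), and it had the largest value of the 8 at 4 h, 0.27 ± 0.09 (adjusted p = 0.192), which did not pass.

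Tcp1, the founding member of the family, had 11.14 at 9 h, 11.25 and 11.27 at 12 h, and 11.26 and 11.22 at 15 h, against 10.90 and 10.86 in the controls of the larger run. Its change in the mean of the 3 times was 0.28 ± 0.06 (adjusted p = 0.0607). At 4 h it was 0.03 ± 0.10, the smallest of the 8. Cct4 had a change of 0.29 ± 0.07 (adjusted p = 0.0829) in the mean of the 3 times, and Cct2 one of 0.20 ± 0.05 (adjusted p = 0.164). Cct2 had levels of 11.91 at 9 h, 11.85 and 11.86 at 12 h, 11.89 and 11.88 at 15 h, and 11.77 and 11.89 at 48 h, against 11.66 and 11.61, so its highest level in that run was at 9 h. The 4 subunits of this side had values of 0.20 to 0.31 and the 4 of the other side 0.31 to 0.44; this grouping was looked at after the values were known and was not tested.

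**Figure D1:**
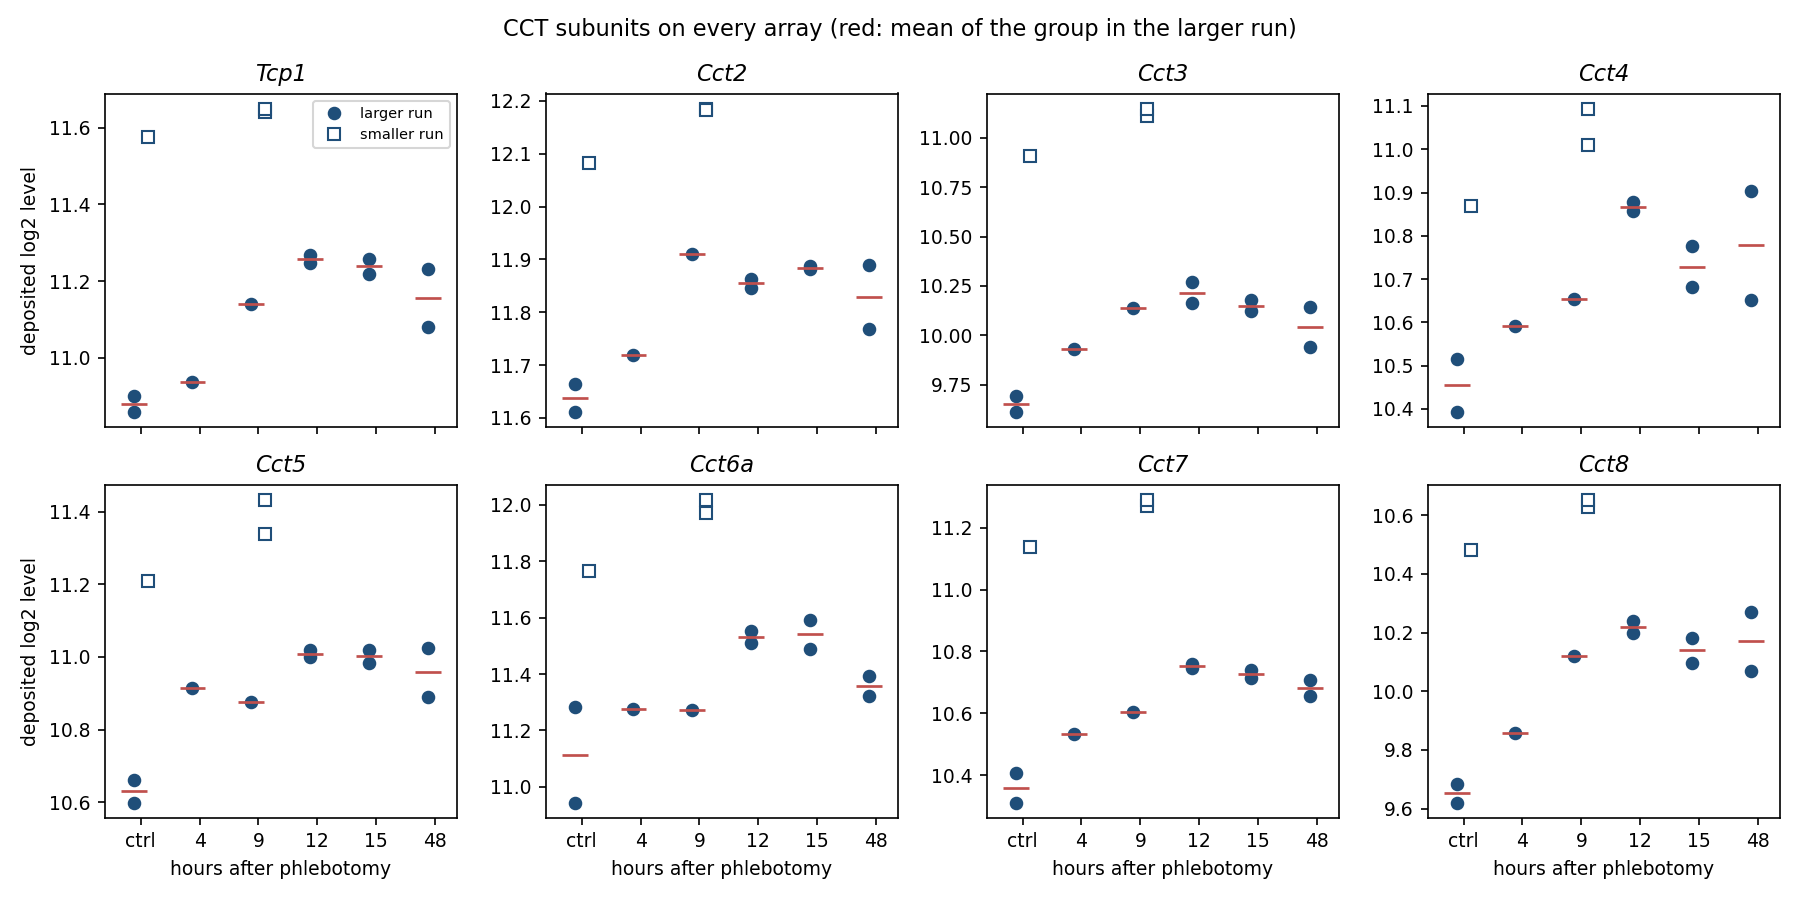
Deposited log2 level (y axis) of each CCT subunit on every array against hours after phlebotomy (x axis, ctrl for controls), with filled circles for the larger run, open squares for the smaller run and red bars for group means in the larger run. Cct3 lay at 9.93 to 10.27 on the phlebotomised arrays of the larger run and at 9.69 and 9.62 in its controls, and levels differ between runs for every subunit.

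Time by time, the median was lowest at 4 h and highest at 12 h, but no single time had a subunit past the threshold. At 4 h the median change of the 8 subunits was 0.15, at 9 h 0.19, at 12 h 0.39, at 15 h 0.36 and at 48 h 0.31. These comparisons share the same controls. By single times 0 of the 8 subunits passed in limma, where 1.74% of all genes were called higher at 4 h, 0.0502% at 9 h, 0.0853% at 12 h, 0.211% at 15 h and 0.326% at 48 h. An unadjusted p under 0.05 with a value above 0 was reached by 1 subunit at 4 h (8.02% of all genes), 7 at 9 h (3.64%), 8 at 12 h (7.63%), 8 at 15 h (7.23%) and 7 at 48 h (9.31%). The lowest adjusted p of a subunit was 0.0716 at 12 h and 0.0741 at 48 h. All 8 values were above 0 at each time, where 49.2% of all genes were at 4 h, 55% at 9 h, 47.9% at 12 h, 48% at 15 h and 53.5% at 48 h. At 12, 15 and 48 h every array lay above both controls of the larger run for 8 of 8 subunits, against 20.1%, 20.3% and 24.2% of all genes. At 9 h that held within each run for 7 of 8, against 6.29%, and at 4 h for 7 of 8, against 35.7%. The share at 9 h is lowered by the repeated values of the smaller run, which no subunit has.

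**Figure D2:**
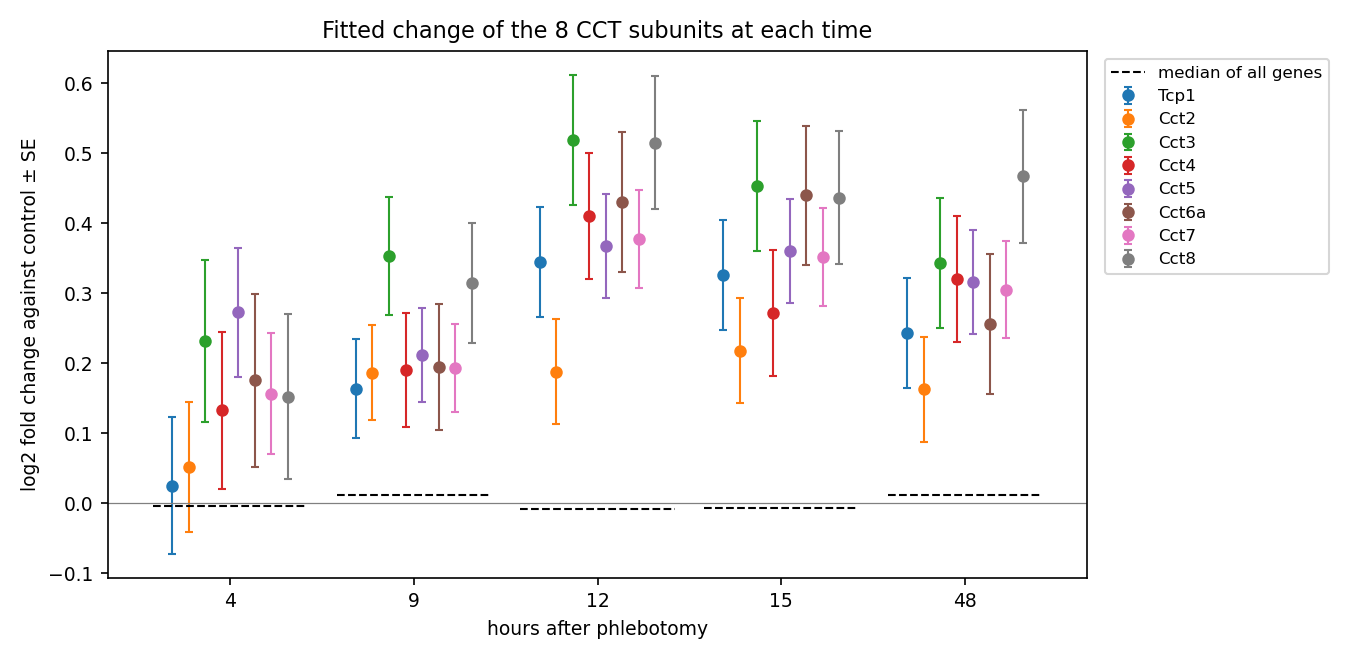
Fitted log2 fold change against control (y axis) of the 8 CCT subunits at each time after phlebotomy (x axis), with bars for 1 SE and dashed lines for the median of all genes. The medians of the 8 were 0.15 at 4 h, 0.19 at 9 h, 0.39 at 12 h, 0.36 at 15 h and 0.31 at 48 h, and the dashed lines lie near 0.

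In the order control, 4 h, 9 h, 48 h, 15 h and 12 h by median change, no step between neighbours passed for any subunit. The count was 0 of 8 in either direction at 9 h against 4 h (0 with an unadjusted p under 0.05), 48 h against 9 h (0), 48 h against 15 h (0) and 15 h against 12 h (0), where 0.166% and 0.226% of all genes were called higher in the first 2 of these and 0.0903% and 0% lower in the last 2. The medians of the last 2 were −0.05 and −0.02, with 2 of 8 above 0 in each. For these steps the share of all genes called in the opposite direction is not given. The mean of 9, 12 and 15 h against 4 h, a comparison added after the data were seen, had a median of 0.17. In it 0 of 8 passed the threshold, where 0.772% of all genes were called higher. An unadjusted p under 0.05 was reached by 2 of 8. The share of all genes at that unadjusted level is not given for any comparison in this paragraph. At 48 h against that mean the median was −0.02 and the range −0.10 to 0.05, with 0 of 8 past the threshold in either direction (0 with an unadjusted p under 0.05; 0.883% and 0.0953% of all genes called higher and lower). The SEs there were 0.06 to 0.09, so a change as small as these values was not detectable.

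The runs can be read apart at 9 h, the one time both hold. The median difference from control was 0.25 in the larger run (1 array against 2) and 0.17 in the smaller (2 against 1). In the smaller run Cct8 was higher by 0.16, against 0.47 in the larger, and Cct3 by 0.22, against 0.49. A term for this difference, added after the data were seen, passed for 0 of 8 subunits and for 0 of all genes in limma. Cct8 had the lowest p among the subunits, with a difference of −0.31 ± 0.15 (unadjusted p = 0.0668, adjusted p = 0.823).

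In 2 of 4 pairs of arrays from one group in the larger run, all 8 subunits differed the same way. All 8 were higher on 48 h replicate 2 than on replicate 1, by 0.05 to 0.25, where 47% of all genes were. All 8 were likewise higher on control replicate 1 than on control replicate 2, by 0.04 to 0.34, where 47.7% of all genes were. The other pairs of that run went both ways: 6 of 8 were higher on replicate 2 at 12 h, where 51.8% of all genes were, and 2 of 8 at 15 h, where 53.7% were. The 9 h pair of the smaller run, replicates 1 and 2, was not counted. It also went both ways, with Cct2 at 12.1854 and 12.1825 and Cct3 at 11.1076 and 11.147. Over the 10 arrays of the larger run the 28 pairs of subunits correlated at r = 0.77 to 0.96, with a median of 0.91; these points share times and arrays and are a description. The lowest r was that of Cct2 with Cct6a and the highest that of Cct5 with Cct7. The mean of the 8 had an SD of 0.17 over these arrays, and the difference of single subunits from that mean had SDs of 0.03 (Cct7) to 0.08 (Cct6a).

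**Figure D3:**
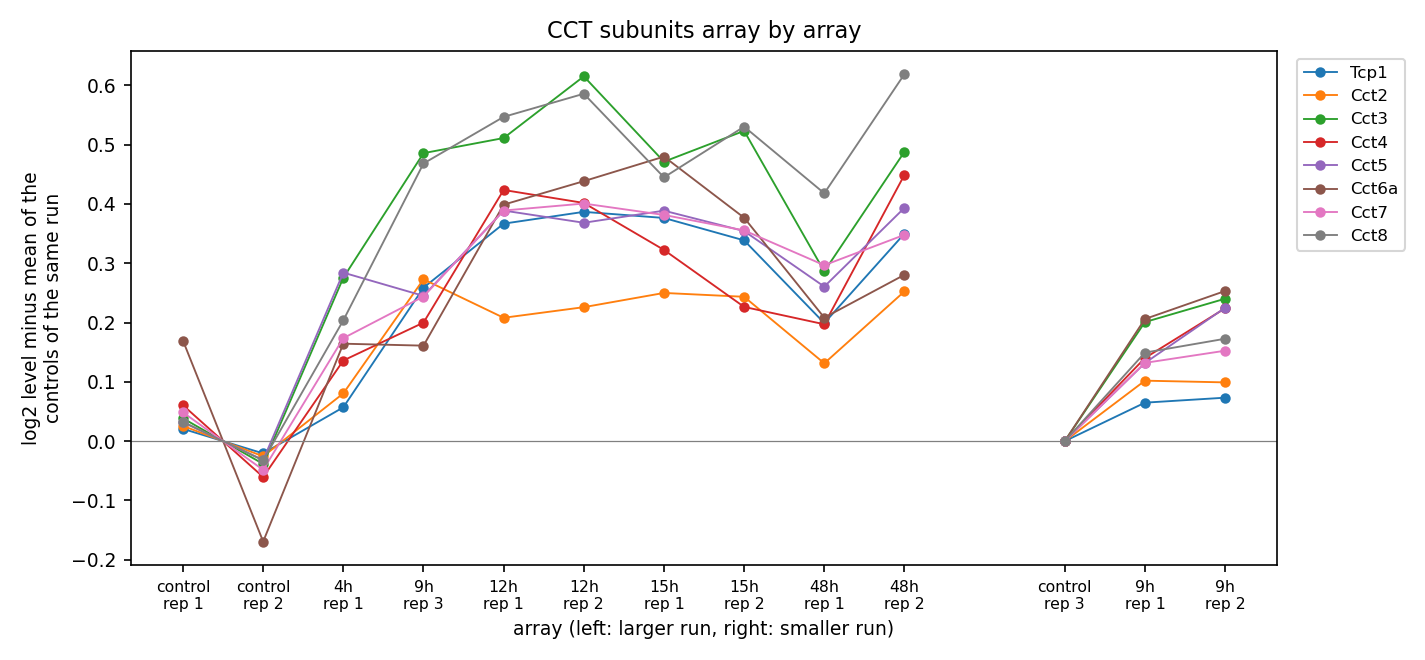
Log2 level of each CCT subunit minus the mean of the controls of the same run (y axis) on every array (x axis; the larger run on the left, the smaller on the right), with a line for each subunit. The lines run side by side, with all 8 subunits higher on 48 h replicate 2 than on 48 h replicate 1 and on control replicate 1 than on control replicate 2.

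Genes outside the complex were ranked by a fixed rule that left out predicted genes (symbols of Gm followed by digits, or with Rik). From the rest, the 6 were taken whose levels correlated most with the mean of the 8 over the same 10 arrays. First were Wdr12, a factor of large ribosomal subunit assembly (r = 0.99), and Nmd3, an export adaptor of that subunit (0.98). Next came Vmn1r5, a vomeronasal receptor (0.98), and Nop58, a core protein of box C/D nucleolar RNPs (0.98). Last were Rpp30, a subunit of RNase P (0.97), and Wdr75, a nucleolar factor (0.97). Among 19930 other genes 0.497% had an r above 0.9. These genes were picked on arrays that enter the contrast of 9 to 15 h with control, so their values there, 0.18 for Vmn1r5 to 0.54 for Wdr12, largely follow from the choice and are given as a description.

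The partners of CCT were measured beside it, in lists written with earlier results of these data known. Prefoldin, which hands unfolded actin and tubulin to CCT, had 0 of 6 subunits past the threshold in the mean of 9, 12 and 15 h. All 6 values were above 0, from 0.11 for Vbp1 to 0.32 ± 0.12 for Pfdn4 (adjusted p = 0.315), with a median of 0.20. The lowest p-values in that list were those of Pfdn6, at 0.22 ± 0.07 (adjusted p = 0.235), and Pfdn2, at 0.20 ± 0.07 (adjusted p = 0.258). At 48 h against control its median was 0.04. The phosducin-like cochaperones, which bind CCT and modulate its cycle, had 0 of 4 past the threshold and a median of 0.14, with Pdcl3 at 0.19 ± 0.07 (adjusted p = 0.353). Of 3 prefoldin-like subunits 0 passed (median 0.11), and of the 5 tubulin cofactors, which take tubulin on from CCT, 0 passed (median 0.10), Tbca being highest at 0.29 ± 0.10 (adjusted p = 0.285). Among these partners Pfdn1, Vbp1, Tbca, the phosducin-like Pdcl and Pdcl2 and the prefoldin-like Uri1 each had equal values on all 3 arrays of the smaller run. Their 9 h difference there is therefore 0, unlike that of the CCT subunits.

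Among substrates no gene passed. Of 8 measured actins and tubulins 0 passed in the mean of the 3 times and the median was −0.06. Actb, the cytoplasmic beta actin, was at −0.02 ± 0.05 (adjusted p = 0.916), Tubb5, a beta tubulin of dividing cells, at −0.10 ± 0.06 (adjusted p = 0.550) and Tubb6 at 0.24 ± 0.11 (adjusted p = 0.412). Of 11 substrates with WD repeats 0 passed and the median was 0.02. The activator of mitotic exit Cdc20 was at −0.01 ± 0.07 (adjusted p = 0.961), and Wrap53, a telomerase protein that CCT folds, had the highest value, 0.19 ± 0.06 (adjusted p = 0.235). In limma 2 of these 19 genes had an unadjusted p under 0.05, both with values above 0, Tubb6 (0.0480) and Wrap53 (0.0103), against 7.39% of all genes. In the smaller run Actb, Tubb2a, Cdc20, Wrap53, Gnb2, Gnb5 and Ppp2r2a each had an equal value on all 3 arrays, as no subunit did. Their 9 h difference in that run is therefore 0, which can draw their fitted change toward 0.

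Among the other chaperonins both genes of the mitochondrial one rose. Hspd1, its ring subunit, had log2 levels of 10.26 at 4 h, 10.95 at 9 h, 11.04 and 11.07 at 12 h, 11.04 and 10.99 at 15 h, and 10.78 and 10.91 at 48 h, against 10.43 and 10.41 in the controls of the larger run. Hspd1 rose by 0.50 ± 0.06 (adjusted p = 0.00683) and its lid Hspe1 by 0.66 ± 0.08 (adjusted p = 0.00385) in the mean of the 3 times. Both also passed at 12 h and 15 h, where no CCT subunit did; the difference between the chaperonins was not tested. At 4 h Hspd1 was at −0.22 ± 0.11 (adjusted p = 0.384) and Hspe1 at 0.13 ± 0.13 (adjusted p = 0.704). The chaperonin-like BBS proteins, which assemble a complex of the primary cilium, had 0 of 3 past the threshold (median 0.08). Cct6b, the testis paralog of Cct6a, was at −0.03 ± 0.08 (adjusted p = 0.918), and Cct8l1 at 0.00 ± 0.05 (adjusted p = 0.999). Their log2 levels in the larger run, 5.15 to 5.58 for Cct6b and 5.31 to 5.74 for Cct8l1, lay below the median of those arrays. Cct6b also had an equal value on all 3 arrays of the smaller run, so these values say little about a response of the paralogs.

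**Figure D4:**
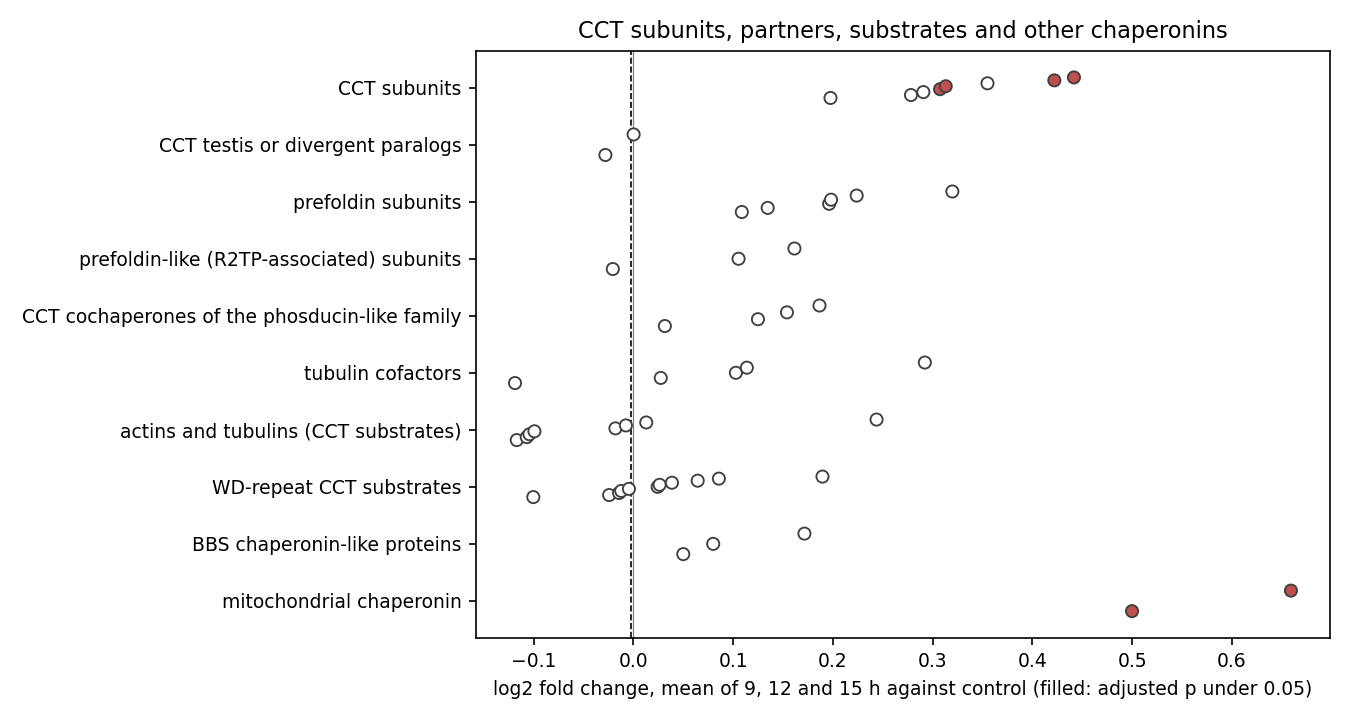
Log2 fold change in the mean of 9, 12 and 15 h against control (x axis) for each gene (points) of the CCT subunits, their partners and substrates and other chaperonins (rows), filled where the adjusted p is under 0.05; the dashed line is the median of all genes. The CCT subunits lie at 0.20 to 0.44, the actins and tubulins around a median of −0.06, and both mitochondrial chaperonin genes at 0.50 and 0.66.

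Markers of the cells of marrow were read beside the subunits. In the mean of the 3 times 1 of 7 measured erythroid markers rose, Tfrc, the transferrin receptor, by 0.46 ± 0.09 (adjusted p = 0.0453), and the median was −0.03. The markers of cycling cells (7), B-lineage cells (7), neutrophils (10) and osteoblasts and stroma (6) each had 0 past the threshold, with medians of −0.04, −0.15, −0.05 and −0.07. At single times the osteoblast and stromal list had medians of −0.76 at 9 h (0 of 6 above 0), 0.18 at 12 h (5 of 6) and 0.42 at 15 h (6 of 6), with 0 past the threshold at each. The 9 h value came mostly from 1 array, that of the larger run, with a list mean of 10.18 against 11.76 and 11.04 in its controls. In the smaller run the list mean was 11.78 and 11.96 at 9 h, against 11.97. At 48 h the medians were 0.31 for the erythroid, 0.17 for the cycling, −0.27 for the B-lineage, −0.14 for the neutrophil and −0.49 for the osteoblast and stromal markers, with 0 past the threshold in each list. The mean level of the erythroid list in the larger run was 11.07 at 4 h, 11.46 at 9 h, 11.29 to 11.47 at 12 h, 11.40 to 11.42 at 15 h and 11.58 to 11.74 at 48 h, against 11.15 and 11.59 in the controls. Control replicate 2, where all 8 subunits were lowest, had the higher of these 2 control values. Small intestine markers lay at a mean of 5.30 to 5.46 from 9 to 15 h in the larger run, against 6.31 and 6.18 in the controls. In the smaller run they lay at 5.94 and 5.93 at 9 h, against 6.71 in the control. Against control 6 of 10 were called lower, and the share of all genes called lower is not given. Of 10 intestine markers 9 rose at 4 h and of 7 liver markers 4 rose at 48 h. In the mean of the 3 times 0 of 7 liver markers and 0 of 8 skeletal muscle markers passed. The liver median there was −0.06 (2 of 7 above 0). The muscle median was −0.49 (0 of 8 above 0). The part of these cells in the subunit values was not tested.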

How the data were processed

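The deposited table holds log2 levels for 35557 probe sets on 13 arrays, which the authors computed by RMA (per the submitters' processing notes); its version, and which arrays were normalized together, are not given in the sources used here. By the platform annotation 21789 probe sets have 1 gene symbol, 1621 have several and 12147 are not listed; symbols were updated through Entrez identifiers for 21698. The probe set with the highest mean stood for a gene, which left 19938 genes. Groups follow the time in the labels and runs the title numbers.

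In R 4.3.3, limma 3.58.1 fitted 6 groups and a run term (6 residual degrees of freedom, 4.62 prior), moderated with eBayes and adjusted over all genes; the lone 4 h array takes its variance from the remaining groups. The fit was tested on simulated data. Promoter windows are from RefSeq. Figures were drawn with matplotlib 3.10.9.

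The members and lists were chosen with earlier results of these data known. All 8 subunits are named; from other lists, members past the threshold or with the smallest p, and others chosen after their values were seen. Of the lists, 4 actins and tubulins and 3 erythroid markers are not among the measured genes. Alternatives changed the run term, samples, filter, probe sets, normalization, moderation and weights, and left out each array.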

Additional observations from a re-analysis of the deposited data

How the results depend on the processing

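In the mean of 9, 12 and 15 h against control every subunit stayed above 0 under each alternative tried. The share of all genes called is not given for the alternative fits, so the counts below cannot be set against it. The count of 4 became 0 without the run term, in the larger run alone and with array weights, 7 with dim genes left out (fewer genes tested), and 2 without the 4 h array and 9 h replicate 1 together (chosen after seeing the data); leaving out 1 array gave 0 to 5. The median there was 0.25 without the run term. Leaving out 1 array gave counts of 0 to 3 at 12 h, 0 to 2 at 15 h and 0 to 1 at 48 h, and medians of 0.090 to 0.18 at 4 h, 0.16 to 0.25 at 9 h, 0.33 to 0.43 at 12 h, 0.32 to 0.37 at 15 h, 0.23 to 0.36 at 48 h and −0.096 to 0.033 at 48 h against the mean of 9 to 15 h. The count at 12 h was 2 with the run as a random block and 3 with dim genes left out or with trend and robust moderation. It was 1 at 15 h with dim genes left out, and 1 at 48 h with the random block or with trend and robust moderation. Without the run term, which leaves the level shift between runs in the contrasts, the medians were −0.070 at 4 h, 0.41 at 9 h, 0.17 at 12 h, 0.13 at 15 h, 0.053 at 48 h and −0.14 at 48 h against the mean of 9 to 15 h. The sign then turned at 4 h for Tcp1 (−0.17), Cct2 (−0.068), Cct3 (−0.14), Cct4 (−0.0024), Cct6a (−0.053), Cct7 (−0.086) and Cct8 (−0.072), and at 48 h for Cct3 (−0.031). With each array centred on its median, the 4 h median was 0.079, with Tcp1 at −0.051 and Cct2 at −0.024. Leaving out 1 array gave −0.012 to 0.057 for Tcp1 at 4 h. At 48 h against the mean of 9 to 15 h, where all values lie near 0, the sign turned without the run term for Cct4 (−0.061), Cct5 (−0.12) and Cct8 (−0.10). It turned for Cct5 in the larger run alone or with only the groups compared (−0.0047 in both), after quantile normalization (−0.013) and without the 4 h array and 9 h replicate 1 (−0.0027), and for Cct7 after centring (0.012) and with array weights (0.0011). Leaving out 1 array there gave −0.11 to 0.040 for Tcp1, −0.095 to 0.026 for Cct2, −0.20 to 0.0021 for Cct3, −0.097 to 0.16 for Cct4, −0.064 to 0.069 for Cct5, −0.028 to 0.023 for Cct7 and −0.055 to 0.15 for Cct8. The cause was not tested. No paired analysis was possible because the labels give the groups no shared replicate numbers. The lone 4 h array and the 2 arrays at 12, 15 and 48 h limit these comparisons.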

Other observations

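The genes next to the subunits on the chromosome were looked up after the data were seen. Of 16 nearest protein-coding neighbours on 8 chromosomes, 15 were measured and 0 passed in the mean of 9, 12 and 15 h against control in limma; 9 had values above 0 and their median was 0.03. The neighbours that overlap a subunit gene differed among themselves. Mrpl18, a mitochondrial ribosomal protein gene that overlaps Tcp1, was at 0.28 ± 0.06 (adjusted p = 0.0650), and Usp16, a deubiquitinase gene that overlaps Cct8, was at 0.30 ± 0.07 (adjusted p = 0.0904). Acat3, which overlaps Tcp1 on its other side, was at −0.05 ± 0.13 (adjusted p = 0.910), Psph, which overlaps Cct6a, at 0.04 ± 0.07 (adjusted p = 0.863), and Pradc1, which overlaps Cct7, at 0.04 ± 0.06 (adjusted p = 0.814). Whether probes of overlapping genes share transcripts was not tested.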
